A study of Mus musculus with 16 samples.

Results

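The change from embryonic stem cells (ESC) to mesodermal cells was read in the uninduced EB5 NERT line, on 4 of the 16 arrays of the series. EB5 is a mouse ESC line, and NERT fuses the Notch1 intracellular domain with a hormone-binding domain, which holds it inactive until 4-hydroxytamoxifen (OHT) is given. The 4 arrays were those of NERT cells that received neither OHT nor cycloheximide (CHX), an inhibitor of protein synthesis. The ESC side held 1 array of cells kept without FCS (ESCe) and 1 array with 1% FCS (ESCm). Both were grown on gelatine and left for 4 h in media with 10% Knockout Serum Replacement. By the study's methods these media also differed in base medium and some supplements. The labels call the cells ES to ectoderm (ESCe) and ES to mesoderm (ESCm). The study describes both media as favoring differentiation, so neither array was of cells kept in self-renewal medium. The mesoderm side held 2 replicate arrays of cells grown for 4 d in serum-containing medium on Collagen IV. All 4 arrays carried the NERT construct, and whether the line was 1 clone is not given in the sources used here. Medium, substrate and days in culture changed together with the cell population and cannot be told apart from differentiation. The control line, EB5 cells with the empty construct, gave 1 array of ESCm and 1 of mesodermal cells without OHT and was set beside the NERT line at the end.

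Embryonic stem cells renew under a network of transcription factors, part of which (the naive factors) is lost when they move towards the epiblast state that precedes gastrulation. In the embryo, mesoderm forms in the primitive streak, where Nodal, Wnt, BMP and FGF signals meet and switch on T-box and homeobox factors. Cells that leave the streak become paraxial, lateral, cardiac or blood and vessel mesoderm, depending on position and time.

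The deposited values were linear signal intensities of 45037 probe sets, with array medians between 42.0 and 46.9 over the 16 arrays. For the test 25 was added to each value, the log2 was taken, and the 25532 probe sets that averaged 50 or more in some group were kept. The test was limma, fitted to all 16 arrays in 10 groups with ESCe and ESCm pooled, and calls were made at a Benjamini-Hochberg adjusted p under 0.05. Differences are mesoderm minus ESC on this log2 scale, which understates the change of weak genes, and errors are standard errors of the fit. Detection calls were not used here. Nothing in the labels says that replicates came from separate cultures, so the p-values rest on a spread between arrays that may be technical, and 2 arrays against 2 could not go below p = 0.333 in an exact two-sided permutation test.

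A large part of the measured genes changed between ESC and mesodermal cells. Of 25532 probe sets, 5943 (23.3%) were higher in mesodermal cells and 3265 (12.8%) were lower. Read by 1 probe set a gene, the brightest, 3418 of 12668 genes (27%) were higher and 1535 (12.1%) lower, and in each of these both mesoderm arrays lay beyond both ESC arrays. That order alone was met by 6030 genes (47.6%) above and 3748 (29.6%) below. A rise of at least 1 on the log2 scale was called in 1355 genes and a fall of that size in 442. Rises of at least 3 numbered 64 and falls of that size 22. The share of calls that were rises, 64.5% of 9208 probe sets, depended on the scaling: it was 50.0% after quantile normalization and 43.1% after median centring. These scalings moved the median of all probe sets from 0.065 to -0.039 and -0.12. By the study's criteria for size, at least 2-fold with a difference over 50 between means, 2554 of 45037 probe sets (5.67%) were higher and 1049 (2.33%) lower. Of these, 2546 and 1043 were also called by limma in the same direction.

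**Figure D1:**
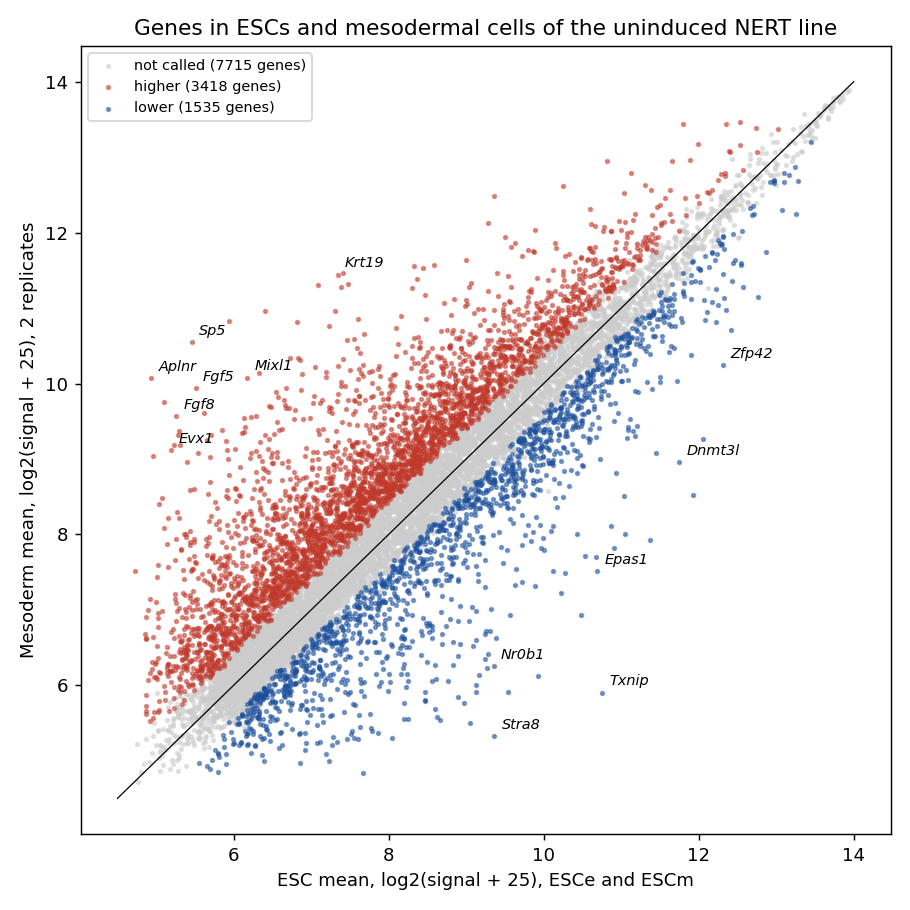
Each point is a gene, read by its brightest probe set, with the mean of ESCe and ESCm on the x axis and the mean of the 2 mesoderm replicates on the y axis, both as log2(signal + 25). Red points were called higher (3418 genes), blue points lower (1535) and grey points were not called (7715). The streak genes Sp5, Fgf8, Evx1 and Mixl1 and the early mesoderm gene Aplnr lie far above the diagonal at low ESC signals, and Txnip, Stra8 and Nr0b1 far below it.

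The distance between cell populations exceeded that between arrays of 1 population. The root mean square difference over tested probe sets was 0.213 (log2) between ESCe and ESCm and 0.245 between the mesoderm replicates. Between an ESC array and a mesoderm array it ran from 0.685 to 0.759. Replicate 1 stood slightly further from the ESC arrays than replicate 2. The difference of replicate 1 from ESCe and that of replicate 2 from ESCm share no array, and across 25532 probe sets they had r = 0.889, with 0.910 for the other pairing. These are correlations across probe sets, which are not independent replicates.

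The 4 marker genes separated the populations on every array. Zfp42 (Rex1), a zinc finger factor of undifferentiated ESC, stood at 4989 in ESCe, 5164 in ESCm, and 781 and 1589 in mesoderm replicates 1 and 2. It was high on both ESC arrays and low on both mesoderm arrays, with replicate 2 about 2-fold above replicate 1, and fell by 2.16 on the log2 scale (4.28-fold higher in ESC, adjusted p = 0.000138 in limma). Mixl1, a homeobox factor of the primitive streak, was at 46.1 in ESCe, 48.5 in ESCm, and 1254 and 856 in mesoderm replicates 1 and 2. Evx1, a homeobox factor of the posterior streak, was at 12.7 in ESCe, 10.5 in ESCm, and 626 and 434 in mesoderm replicates 1 and 2. Neither overlapped between populations, and the log2 differences were 3.88 ± 0.22 (22.3-fold) and 3.90 ± 0.22 (at least 21.2-fold, against the floor of 25). Aplnr, the apelin receptor of early mesoderm, had the largest log2 rise of all genes tested. Its probe set read 5.38 in ESCe, 5.94 in ESCm, and 1005 and 1098 in mesoderm replicates 1 and 2, near the lower end of the scale in ESC and far above it on both mesoderm arrays (at least 42.1-fold, log2 difference 5.13 ± 0.16, adjusted p = 2.18e-09). The cultures were not sorted, and in RNA of whole cultures fewer cells of a type and less RNA per cell cannot be told apart.

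Promoter sequences from RefSeq (GRCm38.p6, 250 bases before to 50 after the start of transcription) were matched for 30 of the 41 genes named by size of change or as markers, and 4 are shown, those of the markers with an entry and of a pair of Wnt pathway genes that rose. The markers with an entry were Zfp42 and Evx1. Capitals mark matches, on either strand, to ATGCAAAT (octamer), TCACAC (T-box site), AATCCACA (FoxH1), CTTTGA (Tcf/Lef) or GGGCGG (Sp1/Klf). The Zfp42 promoter, chr8:43306960-43307259 on the minus strand, and the Evx1 promoter, chr6:52313248-52313547 on the plus strand, each held 1 octamer match, written ATTTGCAT on the strand shown. Of 32851 promoters in the table, 1.74% held these letters.
Zfp42: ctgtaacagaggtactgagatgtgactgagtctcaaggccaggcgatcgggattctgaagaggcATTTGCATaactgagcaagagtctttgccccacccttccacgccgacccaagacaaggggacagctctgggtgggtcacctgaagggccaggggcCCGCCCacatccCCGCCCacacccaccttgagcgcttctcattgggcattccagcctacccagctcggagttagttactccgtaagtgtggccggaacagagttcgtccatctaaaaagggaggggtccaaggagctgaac
Evx1: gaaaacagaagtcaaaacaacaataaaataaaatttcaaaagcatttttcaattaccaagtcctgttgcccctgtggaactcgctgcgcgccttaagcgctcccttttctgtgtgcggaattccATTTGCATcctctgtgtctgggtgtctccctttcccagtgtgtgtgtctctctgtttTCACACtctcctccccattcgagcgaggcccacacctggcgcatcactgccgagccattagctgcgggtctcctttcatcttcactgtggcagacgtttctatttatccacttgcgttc
The Zfp42 window also held 2 matches to the Sp1/Klf letters, found in 35.7% of all promoters, and the Evx1 window 1 match to the T-box letters, found in 14.5%. Sp5, a zinc finger factor and known Wnt target, and Dkk1, a secreted Wnt inhibitor, both rose. The Sp5 window (chr2:70474673-70474972, plus strand) and the Dkk1 window (chr19:30549447-30549746, minus strand) each held 2 matches to the Tcf/Lef letters, found in 16% of all promoters.
Sp5: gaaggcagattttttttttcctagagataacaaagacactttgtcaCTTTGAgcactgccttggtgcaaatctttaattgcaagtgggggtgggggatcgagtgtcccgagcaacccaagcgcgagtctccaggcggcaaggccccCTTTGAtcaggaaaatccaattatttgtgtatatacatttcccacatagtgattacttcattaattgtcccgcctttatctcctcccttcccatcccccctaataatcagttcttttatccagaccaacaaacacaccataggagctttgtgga
Dkk1: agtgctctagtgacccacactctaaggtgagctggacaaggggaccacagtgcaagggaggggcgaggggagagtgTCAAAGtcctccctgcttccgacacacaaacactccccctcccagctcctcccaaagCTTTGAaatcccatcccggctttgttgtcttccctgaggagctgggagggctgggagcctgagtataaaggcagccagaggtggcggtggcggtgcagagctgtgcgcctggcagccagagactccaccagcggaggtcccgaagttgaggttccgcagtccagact
Sp5 and Dkk1 were chosen for display after their matches were seen. The same search was made for the 15 largest rises and the 15 largest falls. No 2 matches overlapped in these 4 windows. The octamer and FoxH1 letters were absent from the 11 promoters found for 9 of these rises and from the 14 found for 12 of these falls. The Tcf/Lef letters were in 1 of the 11 and in 4 of the 14, and the Sp1/Klf letters in 5 and 4. These matches describe letters in these windows and were not tested as sites.

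The 15 largest rises joined streak factors to genes of lactate export, epithelium and interferon response. Sp5 read 21.3 in ESCe, 16.9 in ESCm, and 1553 and 1389 in mesoderm replicates 1 and 2, so that both ESC arrays lay under 25 (log2 difference 5.08 ± 0.17, at least 58.9-fold). Fgf8, a ligand that cells of the streak need to migrate, read 9.23 in ESCe, 17.5 in ESCm, and 856 and 616 in mesoderm replicates 1 and 2. It was close to background in ESC and rose at least 29.4-fold (4.30 ± 0.30). Slc16a3, the exporter of lactate also called Mct4, read 29.9 in ESCe, 42.3 in ESCm, and 1910.2 and 1663 in mesoderm replicates 1 and 2, a rise of 49.4-fold. In these genes the ESC arrays lay at the lower end of the scale and replicate 1 read above replicate 2. Fst, which encodes the activin-binding protein follistatin, was at 57.1 and 62.1 in ESC and 2337 and 1592 in mesodermal cells (4.53 ± 0.24). Fgf5, a ligand that marks the epiblast, was at 22.7 and 18.3 in ESC and 1416 and 491 in mesodermal cells, and there replicate 1 was the higher by far (4.25 ± 0.44). Cited1, a transcriptional coregulator, was at 8.34 and 10.4 in ESC and 653 and 1032 in mesodermal cells, with replicate 2 the higher (4.62 ± 0.36). The others were Igfbp3, a binder of insulin-like growth factors (4.18), the keratin Krt19 (4.11), the interferon-induced Oasl2 (4.09) and Psmb8, a subunit of the immunoproteasome (4.05). Bnip3, a mitochondrial protein with a role in mitophagy (4.05), Efemp1, a matrix protein of the fibulin family (4.02), the scavenger receptor gene Colec12 (4.00) and the lipoxygenase gene Alox15 (3.98) completed the group. Replicate 1 was above replicate 2 in 10 of the 15.

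The 15 largest falls held germline and meiosis genes, naive pluripotency factors and the alpha-arrestin genes Txnip and Arrdc4. Txnip, which restrains glucose uptake, read 1448 in ESCe, 1964 in ESCm, and 29.0 and 40.6 in mesoderm replicates 1 and 2. Arrdc4, a related alpha-arrestin, read 447 in ESCe, 507 in ESCm, and 27.4 and 31.0 in mesoderm replicates 1 and 2. The mesoderm arrays lay near the floor of 25 in both, and they fell by 4.85 and 3.21 on the log2 scale (49.0-fold and 16.3-fold higher in ESC). Stra8, a factor of meiotic entry that answers to retinoic acid, was at 621 and 645 in ESC and 17.3 and 13.0 in mesodermal cells, with both mesoderm arrays under 25 (-4.04 ± 0.16, at least 25.3-fold higher in ESC). Hormad1, of the meiotic chromosome axis (-3.56), Rec114, which acts in the formation of meiotic breaks (-3.25), Morc1, a silencer of transposons in germ cells (-3.27), Khdc3, a gene of oocytes and ESC (-3.64), and Rpl39l, a copy of a ribosomal protein gene used in testis (-3.45), fell with it. Nr0b1 (Dax1), a nuclear receptor of the ESC network, fell from 670 and 592 in ESC to 22.01 and 80.1 (-3.22 ± 0.36), and the homeobox gene Gbx2 at 577 and 494 in ESC and 25.4 and 52.8 in mesodermal cells (-3.16 ± 0.25). Epas1, which encodes the hypoxia factor HIF2 alpha, fell from 1556 and 1699.8 to 136 and 179. The others were Mymx, which encodes a peptide of muscle cell fusion (-3.89), the PHD finger gene Phf11d (-3.65), Rasgrp2, an exchange factor for Rap (-3.45), and the peptidase gene Dpp4 (-3.13). Replicate 1 was below replicate 2 in 13 of the 15, the exceptions being Stra8 and Rasgrp2.

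**Figure D2:**
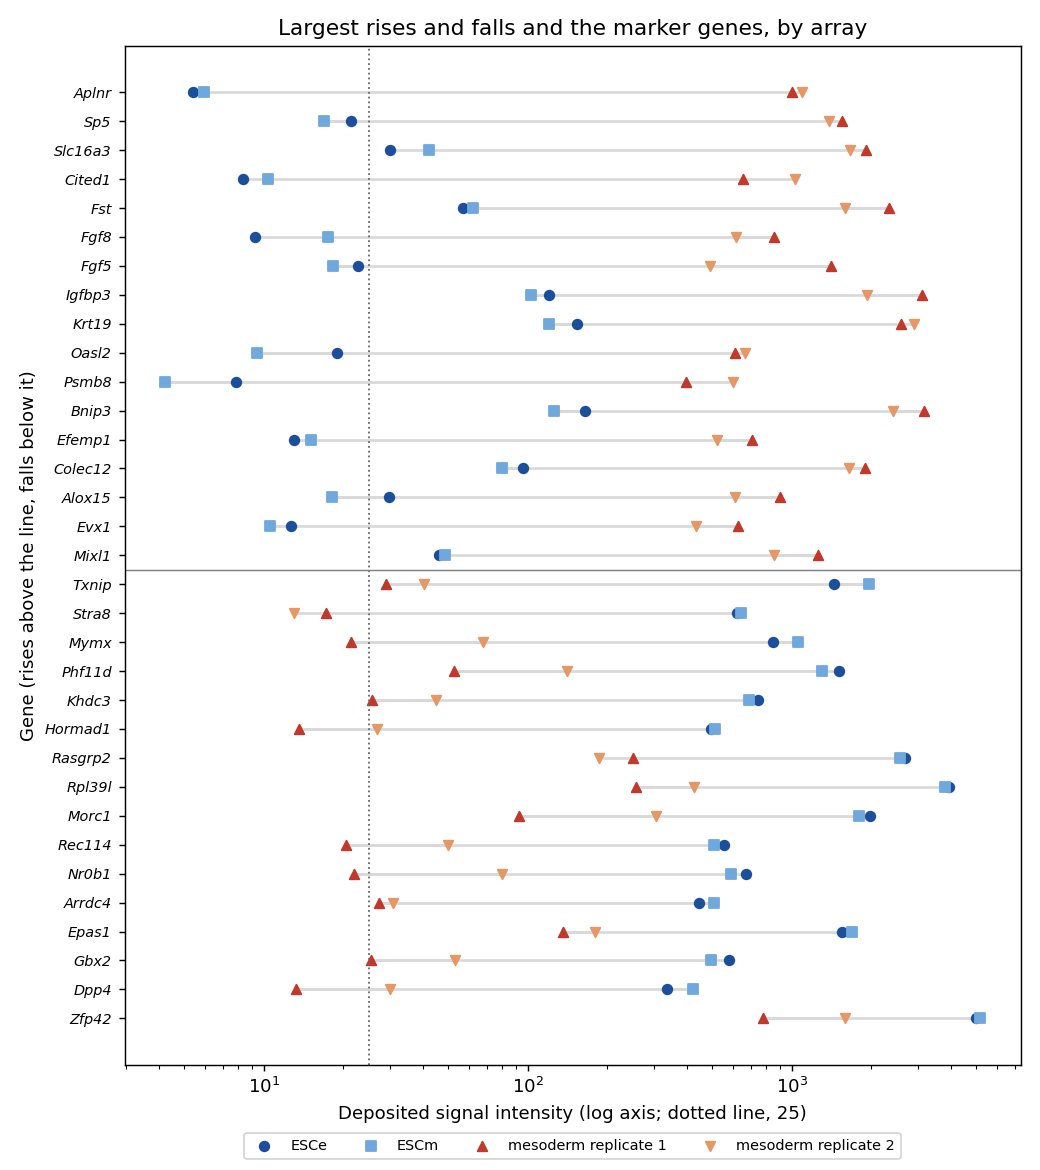
Each row is a gene (the 15 largest rises with Evx1 and Mixl1 above the line, the 15 largest falls with Zfp42 below it), and each symbol is its deposited signal intensity on 1 of the 4 arrays, on a log axis; the dotted line marks 25. The ESC symbols and the mesoderm symbols do not overlap in any row, and the mesoderm replicates are farthest apart for genes such as Nr0b1 (22.01 and 80.1) and Morc1 (93.0 and 307).

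The naive pluripotency factors fell almost without exception. Over all genes tested, 27% were called higher and 12.1% lower, and the counts of each list are to be read beside these shares. Of 17 genes tested, 15 were called lower and none higher, with a median difference of -1.70, against 0.11 over all genes tested. Nr5a2, a nuclear receptor that acts on Pou5f1, was at 1566 in ESCe, 1342 in ESCm, and 98.9 and 269.8 in mesoderm replicates 1 and 2 (-2.95 ± 0.39). Fbxo15, an F-box gene of ESC, was at 2881 and 2678 in ESC and 351 and 676 in mesodermal cells (-2.45 ± 0.31), and Fgf4, the ESC ligand of the FGF pathway, at 695 and 533 in ESC and 71.5 and 138 in mesodermal cells. Klf4 (-1.91), Esrrb (-1.72), Tbx3 (-1.57) and Tcl1 (-1.52) were lower too. Klf5 (2282 and 1738 in ESC and 1501 and 1669 in mesodermal cells) and Dppa3 (93.5 and 89.1 in ESC and 36.4 and 87.0 in mesodermal cells) were not called. In all 17 genes replicate 1 read below replicate 2, and in Tcl1 the replicates stood at 63.0 and 224, more than 3-fold apart. The call of Tcl1 was lost without ESCe or without replicate 1 (adjusted p up to 0.158).

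The core factors shared with the epiblast had a smaller median fall. Among 13 tested genes 8 were lower and 1 higher (median -0.85). Pou5f1 (Oct4) read 2876 in ESCe, 2954 in ESCm, and 2576 and 1814 in mesoderm replicates 1 and 2, a difference of -0.43 ± 0.32 that was not called (adjusted p = 0.326). Nanog read 1909 in ESCe, 2058 in ESCm, and 1491 and 1247 in mesoderm replicates 1 and 2 and fell by 0.53 on the log2 scale, and Sox2 read 5762 in ESCe, 5337 in ESCm, and 2914 and 3233 in mesoderm replicates 1 and 2 and fell by 0.85. All 3 were lower on both mesoderm arrays, but their signals stayed high, and the call of Nanog was lost without ESCm or without replicate 2 (adjusted p up to 0.108). The largest falls in this list were those of Dppa2, a chromatin factor of ESC (4133 and 4323 in ESC and 539.7 and 643 in mesodermal cells, -2.79 ± 0.13), and Foxd3, a forkhead repressor (309 and 252 in ESC and 17.5 and 26.6 in mesodermal cells, -2.70 ± 0.22). Gdf3, a Nodal-related ligand (-1.52), and Utf1, a chromatin-bound ESC factor (-1.46), fell as well. Lin28a, the RNA-binding inhibitor of let-7, was called higher at 0.43, a call that was lost in 8 of 14 alternative settings, among them without ESCe and without either mesoderm replicate (adjusted p up to 0.284).

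Genes of the primed epiblast mostly rose, 3 were not called, and a pair of DNA methyltransferase genes fell. Of 12 tested, 7 were higher and 2 lower (median 0.68). Beside Fgf5, the claudin gene Cldn6 read 179 and 157 in ESC and 1308 and 1492 in mesodermal cells (2.88 ± 0.22), the zinc finger gene Zic5 rose by 1.23 and Nodal by 1.15. Otx2, the homeobox factor of the anterior epiblast, was at 530.4 and 485 in ESC and 660.1 and 366 in mesodermal cells and was not called. Dnmt3a fell from 2005 and 1853 to 411 and 437 (-2.12 ± 0.13), and Dnmt3b by 0.31, a call that was lost with any 1 of the 4 arrays left out (adjusted p up to 0.181). In the pathway of LIF, the cytokine that maintains mouse ESC, 4 of 11 genes were higher and 3 lower, but with any 1 of the 4 arrays left out 1 was higher. The receptor gene Lifr (1459.9 and 1575 in ESC and 504 and 645 in mesodermal cells, -1.37 ± 0.17) and Bcl3 (-1.82), a coactivator downstream of Stat3, were lower, and the feedback inhibitor Socs3 was at -0.86, a call lost without ESCe or without replicate 1 (adjusted p up to 0.102). The kinase gene Jak2 was higher (1.44), and Stat3 itself was not called (496 and 465 in ESC and 401 and 364 in mesodermal cells).

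The primitive streak list had the highest median of the 35 lists, except with 100 added to each value, where it was 1.33 against 1.39 for both the interferon and the epithelial list. Of 15 genes tested, 13 were higher and none lower (median 2.41). The ESC mean of 8 of them was under 25, so that they could pass the filter on low values only through other groups, and the count is given as a description. Eomes, the T-box factor of streak and definitive endoderm, read 85.2 in ESCe, 62.4 in ESCm, and 746 and 556 in mesoderm replicates 1 and 2 (2.77 ± 0.17). Lhx1, a homeobox factor, and Gsc, one of the anterior streak, rose from under 10 in ESC to 194 and 121 and 147 and 86.2. Both sets of arrays were well apart, with replicate 1 the higher each time. Wnt3, the ligand that starts the streak, was at 9.80 and 4.12 in ESC and 119 and 107 in mesodermal cells (2.12 ± 0.21), and Cyp26a1, which degrades retinoic acid, at 38.6 and 33.5 in ESC and 442 and 529 in mesodermal cells (3.06 ± 0.20). The Nodal inhibitor Lefty2 (2.41), the zinc finger gene Sp8 (1.86) and Fgf17 (0.66) were called as well. Foxa2, a forkhead factor of anterior streak and endoderm, rose by 1.08, to 92.9 and 43.0. The calls of Foxa2 and Fgf17 were lost without replicate 1 and without replicate 2, respectively, and that of Fgf17 also without either ESC array (adjusted p up to 0.0959 and 0.181). Mesp1 and Mesp2, which mark cells that leave the streak, were at 241 and 235 in ESC and 259 and 253 in mesodermal cells and at 95.4 and 109 in ESC and 134 and 93.7 in mesodermal cells, and neither was called. Replicate 1 was above replicate 2 in 13 of the 15.

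Lists of later mesoderm held calls in both directions. The paraxial and lateral counts lay near the shares of all genes tested, 27% higher and 12.1% lower, and do not set these lists apart. In the paraxial list 3 of 10 tested genes were higher and 1 lower (median 0.23). The ESC mean was under 25 in 5 of these 10, in 2 of the 13 lateral and in 2 of the 7 cardiac genes tested. Such genes could pass the filter on low values only through other groups, and these counts are given as a description. Rspo3, a secreted enhancer of Wnt signaling, read 25.1 in ESCe, 17.9 in ESCm, and 519.6 and 517 in mesoderm replicates 1 and 2 (3.55 ± 0.17). Dll3, a Notch ligand-like gene of presomitic mesoderm, read 114 and 106 in ESC and 311 and 341 in mesodermal cells (1.38 ± 0.13), and the T-box gene Tbx6 22.9 and 21.3 in ESC and 67.2 and 71.9 in mesodermal cells (1.01 ± 0.16). Tcf15, a bHLH factor of somites that ESC also express, fell from 2161 and 2138 to 745 and 544 (-1.72 ± 0.22). In the lateral and haematovascular list, 3 of 13 were higher and 1 lower (median -0.054, and 0.19 without replicate 1). Beside Aplnr, Lmo2, a cofactor of blood formation, rose from 22.7 and 16.9 to 219.9 and 222 (2.46 ± 0.20). Pdgfra, a growth factor receptor of early mesoderm, read 59.6 and 24.6 in ESC and 90.5 and 155 in mesodermal cells and was called (1.15 ± 0.30), but not without ESCm or without replicate 2 (adjusted p up to 0.119). Of the 2 tested probe sets of Pdgfra 1 was called higher, and the other was not called. Kdr encodes Flk1, the surface protein by which the study followed differentiation. The study showed it as the share of positive cells by flow cytometry, for cultures on OP9 stromal cells. Here RNA of whole cultures on Collagen IV was read, which is another measure. Kdr read 234 in ESCe, 197 in ESCm, and 229 and 277 in mesoderm replicates 1 and 2. The populations overlapped, and Kdr was not called (difference 0.21 ± 0.20, adjusted p = 0.445). The blood and vessel factors Tal1, Gata1, Gata2, Runx1 and Etv2 were not called either, at intensities between 50.6 and 227 on the 4 arrays, and the endothelial receptor gene Tek was called lower at -0.43, a call lost without ESCe or without either replicate (adjusted p up to 0.254). In the cardiac list of 7, Isl1 was higher at 9.33 and 11.3 in ESC and 51.8 and 46.4 in mesodermal cells and cardiac actin Actc1 was lower (171 and 141 in ESC and 36.5 and 33.9 in mesodermal cells).

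Markers of other cell types that the cultures could hold moved in both directions. The endoderm counts lay near the shares of all genes tested, 27% higher and 12.1% lower. Of 11 endoderm genes, 3 were higher (Apoe, 1.16, which many cell types express, Cxcr4, 0.86, and Dab2, 0.61) and Amn was lower (-0.99). The call of Cxcr4 was lost without ESCe, ESCm or replicate 2 and that of Dab2 without ESCm or replicate 2 (adjusted p up to 0.158 and 0.179). The defining factors Sox17, Gata4, Gata6, Hnf4a and Foxa1 were not called, and Sox17 read 51.0 and 66.2 in ESC and 91.7 and 85.7 in mesodermal cells. Of 12 neuroectoderm genes, 5 were lower (median -0.22): Pax6 went from 115 and 93.8 to 36.9 and 17.2, Tubb3, a neuronal tubulin, from 264 and 271 to 43.6 and 62.2, and the proneural Neurod1 from 171 and 122 to 23.2 and 26.8. Sox1 and En2 fell too, while Map2 (1.38) and Msi1 (0.95) rose. The mesoderm mean was under 25 in 3 of the 12 neuroectoderm genes and the ESC mean in 1. These could pass the filter only through other groups, and the neuroectoderm count is given as a description. In the trophectoderm list of 7, Cdx2 and the keratin Krt7 rose (32.1 and 47.1 in ESC and 373 and 361 in mesodermal cells, and 32.4 and 30.2 in ESC and 155 and 376 in mesodermal cells), and Gata3, Ascl2, Tfap2c, Plac1 and Tead4 were not called. Cdx2 is also a gene of the posterior streak. The summed intensity of the trophectoderm list was 1170.1 to 1409 in ESC and 1798 to 2398 in mesodermal cells. That of the neuroectoderm list was 1227 to 1271 and 826 to 931, and that of the endoderm list 2089 to 2389 and 4252 to 4333, most of it Apoe. The part of these cell types in the other results was not tested.

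**Figure D3:**
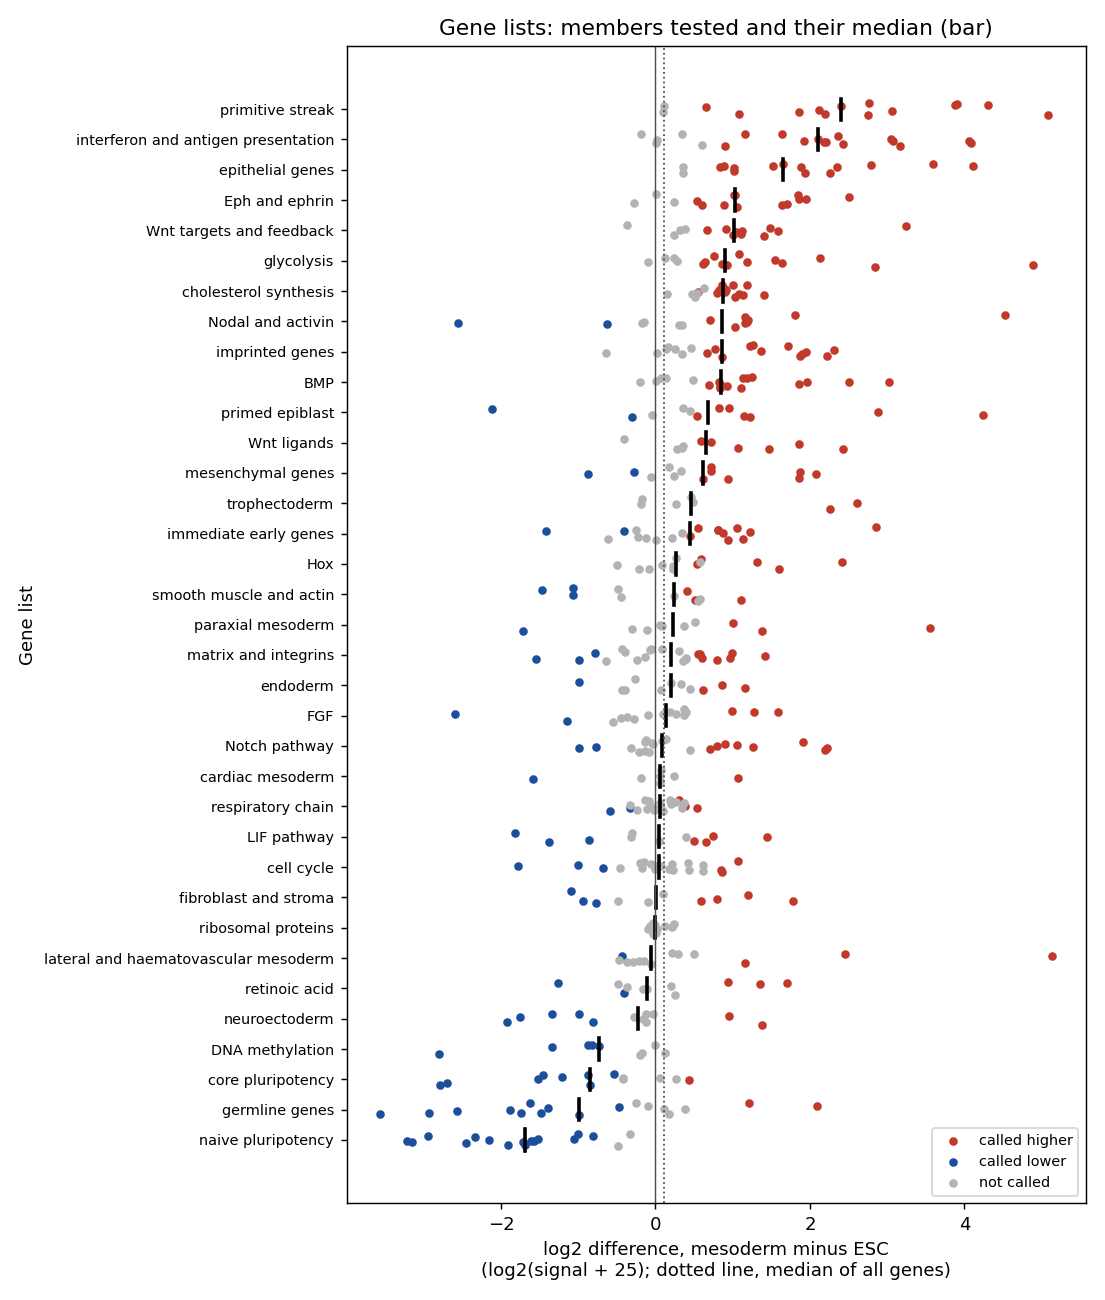
Each point is a tested member of a gene list and the x axis its log2 difference, mesoderm minus ESC; red points were called higher, blue points lower and grey points were not called, and the black bar is the list median. The primitive streak (median 2.41), interferon and antigen presentation (2.11) and epithelial lists (1.65) lie to the right of the dotted median of all genes (0.11), and the naive pluripotency list (-1.70) lies furthest to the left.

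Epithelial genes rose as a group, and so did several mesenchymal ones. Of 15 epithelial genes 13 were higher and none lower (median 1.65), and all 15 read higher on both mesoderm arrays. Krt19 read 154 in ESCe, 121 in ESCm, and 2595 and 2920.2 in mesoderm replicates 1 and 2. The claudin gene Cldn7 read 78.4 in ESCe, 84.2 in ESCm, and 1359 and 1169.8 in mesoderm replicates 1 and 2 (3.60 ± 0.21). In both genes the lowest mesoderm array stood more than 10 times above the highest ESC array. Keratin 8 (Krt8) was at 1235 and 1145 in ESC and 5461 and 7020 in mesodermal cells (2.36 ± 0.23), the sorting adaptor Ap1m2 at 73.1 and 69.1 in ESC and 621 and 664 in mesodermal cells (2.80 ± 0.20) and the splicing factor Esrp1 at 352 and 294 in ESC and 1300 and 1204 in mesodermal cells. E-cadherin (Cdh1), the adhesion molecule of epithelia, read 2742 in ESCe, 2598 in ESCm, and 4773 and 4799 in mesoderm replicates 1 and 2, a rise of 0.84 ± 0.10 with no overlap. In the mesenchymal list 7 of 13 were higher and 2 lower (median 0.62), and without ESCm 4 were higher. N-cadherin (Cdh2) read 310.4 in ESCe, 309 in ESCm, and 1487 and 1300.5 in mesoderm replicates 1 and 2 (2.08 ± 0.21). Cadherin 11 (Cdh11, 1.87), the growth factor gene Tgfb1 (1.86), the E protein gene Tcf4 (0.94) and the repressor of E-cadherin Snai1 (0.72) rose, the last not without ESCm (adjusted p up to 0.0845). The repressor gene Zeb1 fell from 201 and 216 to 97.0 and 108 (-0.87 ± 0.14), and Vim, the intermediate filament vimentin, was high on all 4 arrays (8119 and 7853 in ESC and 6571 and 6648 in mesodermal cells) and was called lower at -0.27, a call lost with any 1 of the 4 arrays left out (adjusted p up to 0.192). Snai2 and Twist1 were not called.

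Of the signals that meet in the streak, the Nodal, BMP and Wnt lists held mostly rises. In the Nodal and activin list 8 of 14 were higher and 2 lower (median 0.87). The feedback inhibitor Lefty1 read 439 and 421 in ESC and 2139 and 1149.7 in mesodermal cells (1.81 ± 0.36), with replicate 1 nearly double replicate 2. The receptor genes Acvr2b (1.20), Acvr2a (1.19) and Acvr1b (1.03) and the signal carriers Smad3 (1.16) and Smad4 (0.70) rose. Inhbb, the beta B subunit of activin and inhibin, went the other way, from 329.8 and 326 to 28.9 and 41.6 (-2.56 ± 0.16), and the convertase gene Pcsk6 was at -0.63, a call lost without ESCe, ESCm or replicate 1 (adjusted p up to 0.197). In the BMP list 14 of 19 were higher and none lower (median 0.85). The targets Id2, 76.8 and 75.0 in ESC and 616 and 1017 in mesodermal cells (3.02 ± 0.29), Id3, 187 and 209 in ESC and 627 and 978 in mesodermal cells (1.86 ± 0.31), and Msx1, 28.6 and 24.2 in ESC and 264 and 268 in mesodermal cells (2.50 ± 0.28), led it with the ligand Bmp2 (1.97 ± 0.24). Id2 and Id3 read higher in replicate 2 than in replicate 1. Bmp4, the ligand most tied to mesoderm induction, read 1419 and 850.1 in ESC and 810.4 and 1121 in mesodermal cells, overlapped between populations and was not called.

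In the Wnt pathway, 6 of 10 tested ligand genes rose (median 0.66), 3 without replicate 2 (median 0.42), and under 6 of the alternatives, both scalings among them, 1 was called lower. Wnt5b read 14.4 and 21.9 in ESC and 235 and 181 in mesodermal cells (2.43 ± 0.19), Wnt5a 19.4 and 26.7 in ESC and 112 and 195 in mesodermal cells (1.86 ± 0.21), and Wnt4 and Wnt8a rose by 1.47 and 1.07, Wnt4 not without ESCm or either replicate (adjusted p up to 0.0872). Wnt11, at 196 and 164 in ESC and 124 and 135 in mesodermal cells, and Wnt7b were among the 4 not called. Of 14 target and feedback genes 10 were higher and none lower (median 1.02), with 1 lower after quantile normalization, after median centring or without replicate 2. Dkk1 read 56.6 in ESCe, 33.9 in ESCm, and 556 and 711 in mesoderm replicates 1 and 2 (3.24 ± 0.27). Axin2, a feedback inhibitor used as a readout of the pathway, read 128 in ESCe, 143 in ESCm, and 479 and 431 in mesoderm replicates 1 and 2 (1.58 ± 0.16). Both were over 3 times higher on each mesoderm array than on either ESC array. The antagonist Frzb (1.48), the ligase gene Znrf3 (1.41), the pathway's own factor Lef1 (1.12) and Cdx1 (1.04) rose, and Notum was not called (259 and 274 in ESC and 171 and 235 in mesodermal cells). The ESC mean was under 25 in 2 of the 10 ligand genes and in 2 of the 14 target and feedback genes. These could pass the filter only through other groups, and both Wnt counts are given as a description.

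The FGF, retinoic acid and Notch lists moved in both directions, beside 27% higher and 12.1% lower among all genes tested. Of 16 FGF genes 3 were higher and 2 lower, with a median of 0.14 that turned negative after median centring or without ESCm (-0.019). Fgf8 (4.30), Fgf5 (4.25), Fgf17 (0.66) and Fgf4 (-2.34) were counted in other lists and not among these 16. The Erk phosphatase gene Dusp4 (366 and 313 in ESC and 1122 and 1009 in mesodermal cells, 1.58 ± 0.22), the inhibitor Spry1 (1.28) and the receptor gene Fgfr1 (0.99) rose. Etv4, an ETS factor downstream of the pathway, fell from 573 and 644 to 93.9 and 67.0 (-2.60 ± 0.21), and the inhibitor Spry4 fell by 1.15. In the retinoic acid list the reductase gene Dhrs3 (1.70), the retinol dehydrogenase gene Rdh10 (1.35) and Aldh1a3 (0.94) were higher and the receptor gene Rarg was lower (1161 and 1181 in ESC and 490.1 and 461 in mesodermal cells, -1.26 ± 0.15), with Rara, another receptor gene, at -0.41, among 11 tested. The call of Rara was lost with any 1 of the 4 arrays left out (adjusted p up to 0.183). The call of Aldh1a3 was lost without ESCe or without replicate 2 (adjusted p up to 0.126). Cyp26a1 (3.06) was counted in the streak list and not in the retinoic acid list. Of 21 Notch genes 8 were higher and 2 lower, with a median of 0.083 that turned negative after quantile normalization and median centring. The Notch median was 0.39 with all probe sets of a gene averaged. Nrarp, a feedback inhibitor of Notch, read 110.3 in ESCe, 113 in ESCm, and 534 and 707 in mesoderm replicates 1 and 2 (2.23 ± 0.19). Notch3 was at 269 and 273 in ESC and 1521 and 1172 in mesodermal cells (2.20 ± 0.33), Notch2 at 289 and 314 in ESC and 860.4 and 661 in mesodermal cells (1.26 ± 0.18) and the target Hey2 at 52.7 and 49.7 in ESC and 222 and 308 in mesodermal cells (1.91 ± 0.21). Rbpj, the DNA-binding partner of the Notch intracellular domain, fell from 2666 and 2602 to 1293 and 1339 (-0.99 ± 0.15), and the glycosyltransferase gene Rfng by 0.77. Notch1 was at 469.7 and 351 in ESC and 395 and 391 in mesodermal cells and was not called. How far its probe set also reads the NERT transcript was not tested.

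Eph receptors and ephrins, which steer cell contacts at tissue borders, rose in 12 of 15 tested genes (median 1.03), and none was lower except 1 after quantile normalization. The receptor gene Epha1 read 139 in ESCe, 138 in ESCm, and 998 and 816 in mesoderm replicates 1 and 2 (2.50 ± 0.18). Epha7 (1.86) and the ligand genes Efna1 (1.95), Efna3 (1.85) and Efnb1 (1.64) followed. Of the Hox genes, which order cells along the body axis, 13 of 39 listed were tested, 5 were higher and none lower, against 3 and 2 after quantile normalization or median centring. One was called lower without replicate 1, without the CHX arrays, with 100 added to each value and with the 4 arrays fitted alone. Hoxb1 read 11.2 and 14.6 in ESC and 187 and 166 in mesodermal cells (2.41 ± 0.20), and Hoxb2 read 13.2 and 13.0 in ESC and 87.5 and 94.2 in mesodermal cells (1.61 ± 0.16). Both were under 15 in ESC. The ESC mean was under 25 in 4 of the 13 Hox genes and in 2 of the 15 Eph and ephrin genes tested. These could pass the filter only through other groups, and both counts are given as a description. Hoxd9 (1.31) was called, but not without replicate 2 (adjusted p up to 0.0697), and Hoxa5 was at 0.59, a call lost without ESCe or without replicate 1 (adjusted p up to 0.112).

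**Figure D4:**
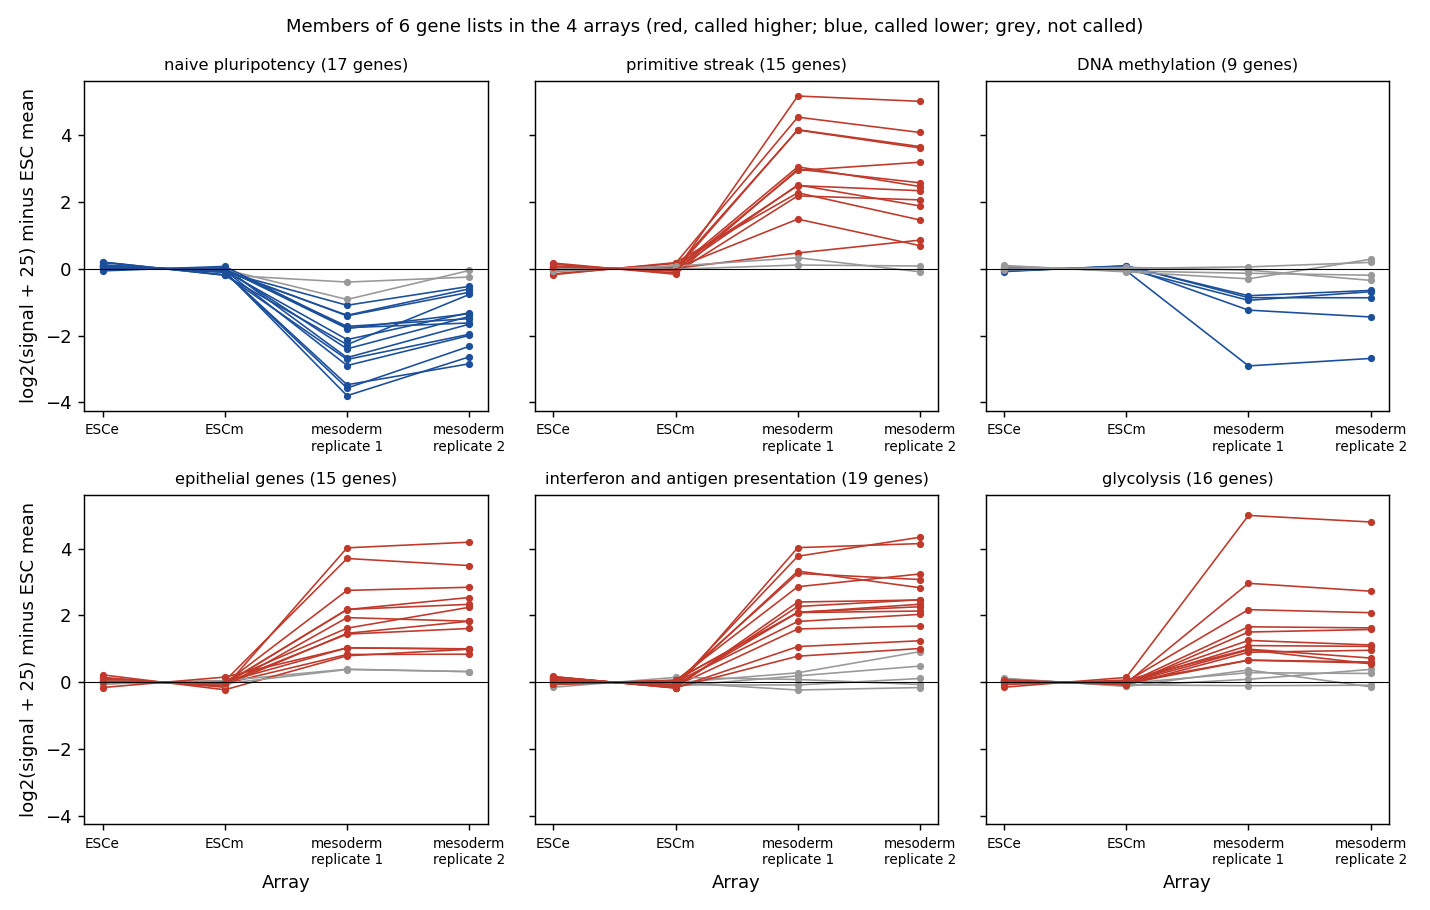
Each line is a tested member of 1 of 6 gene lists across the 4 arrays, as log2(signal + 25) minus the gene's ESC mean; red lines were called higher, blue lines lower and grey lines were not called. All 17 naive pluripotency genes read lower in replicate 1 than in replicate 2, and 16 of the 19 interferon and antigen presentation genes read lower in replicate 1.

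Part of the DNA methylation machinery fell. Of 9 tested genes 5 were lower and none higher (median -0.73). Dnmt3l, the cofactor of the de novo methyltransferases, read 3569 in ESCe, 3274 in ESCm, and 434 and 510.2 in mesoderm replicates 1 and 2 (7.25-fold higher in ESC, -2.80 ± 0.19, adjusted p = 2.07e-07). Tet1, which oxidises 5-methylcytosine, read 1878 in ESCe, 2040.3 in ESCm, and 814 and 703 in mesoderm replicates 1 and 2 (-1.34 ± 0.13). Uhrf1 (-0.87) and Dnmt1 (-0.73), which copy methylation after replication, and Tet2 (-0.82) were lower too, Dnmt1 not without ESCm or without replicate 1 (adjusted p up to 0.0645). The methyl-CpG binding proteins Mbd1, Mbd2 and Mbd3 were not called. With Dnmt3a above, Dnmt3l and Tet1 were at less than 1 in 2 of their ESC intensity on each mesoderm array.

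Imprinted genes rose in 12 of 19 tested (median 0.86), and none was lower. One gene was called lower after quantile normalization, after median centring, without replicate 2 and with the 4 arrays fitted alone. Plagl1, a zinc finger factor of the imprinted network, read 163 and 143 in ESC and 901 and 810.2 in mesodermal cells (2.31 ± 0.18). The cell cycle inhibitor Cdkn1c (174 and 168 in ESC and 938 and 839.8 in mesodermal cells, 2.22 ± 0.33), Peg3 (1.95), Nnat (1.90) and Grb10 (1.87) rose as well. Igf2, the fetal growth factor, read 85.9 and 98.4 in ESC and 147 and 407 in mesodermal cells, and replicate 2 stood far above replicate 1. Igf2 was called, but not without ESCe, ESCm or replicate 2 (adjusted p up to 0.287). Mest, at 1616 and 1438 in ESC and 734 and 1282 in mesodermal cells, and Meg3 were not called. Of the germline genes, 10 of 17 fell and 2 rose (median -0.99). The median was -0.48 without replicate 1 and -1.42 without replicate 2. The mesoderm mean of 3 of the 17 was under 25. These could pass the filter only through other groups, and the germline count is given as a description. Beside Hormad1, the kinase gene Stk31 went from 577 and 589 to 40.1 and 73.2 (-2.93 ± 0.25) and Dazl, an RNA-binding protein of germ cells, from 523 and 517 to 58.8 and 75.1 (-2.57 ± 0.20). Mael, of the piRNA pathway (-1.74), and the synaptonemal complex gene Sycp1 (-1.49) fell with them. Dnd1, an RNA-binding protein of germ cells (146 and 142 in ESC and 771 and 620.3 in mesodermal cells, 2.09 ± 0.17), and Prdm1 (Blimp1), a factor of germ cell origin (28.5 and 39.9 in ESC and 119 and 104 in mesodermal cells, 1.21 ± 0.15), rose. Ddx4 (Vasa) was not called, at 417 and 386 in ESC and 444 and 465 in mesodermal cells.

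Genes of the interferon response and of antigen presentation rose in 14 of 19 tested (median 2.11), and none fell, except that 1 was called lower with the 4 arrays fitted alone or without the CHX arrays. The ESC mean of 5 of the 19 was under 25, so that these could pass the filter only through other groups, and the count is given as a description. Oasl2 read 18.9 in ESCe, 9.46 in ESCm, and 609.5 and 665 in mesoderm replicates 1 and 2 (4.09 ± 0.17). Psmb8 read 7.82 in ESCe, 4.23 in ESCm, and 398 and 602 in mesoderm replicates 1 and 2 (4.05 ± 0.26). Both were under 20 in ESC. The class I gene H2-K1 was at 108 and 107 in ESC and 1242 and 1090.4 in mesodermal cells (3.17 ± 0.16), B2m, its light chain, at 367 and 299.9 in ESC and 1694 and 1949 in mesodermal cells (2.37 ± 0.20) and the peptide transporter gene Tap1 at 43.2 and 35.6 in ESC and 250 and 283 in mesodermal cells. The factor Irf1 read 337 and 307 in ESC and 3454 and 2439.9 in mesodermal cells (3.08 ± 0.17). Irf7, Ifit3, Stat2, Ifitm2 and Ifitm3 were not called, and Irf7, a regulator of the response, read 78.0 and 101 in ESC and 95.9 and 84.0 in mesodermal cells, where the populations overlapped. Summed over the list, intensity was 6959 to 7359 in ESC and 18197 to 19435 in mesodermal cells.

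Glycolysis genes rose, and few respiratory chain genes were called. Of 16 glycolysis genes 12 were higher and none lower (median 0.89). Pfkl, liver phosphofructokinase, read 611 in ESCe, 587 in ESCm, and 4834 and 4099 in mesoderm replicates 1 and 2 (2.84 ± 0.30). Triose phosphate isomerase (Tpi1) read 1755 in ESCe, 1802 in ESCm, and 8110.3 and 7612 in mesoderm replicates 1 and 2 (2.13 ± 0.15). In each the mesoderm arrays were over 4 times the ESC arrays. Pgk1 (1.64), Ldhb (1.54), Aldoa (1.18) and the glucose transporter genes Slc2a3 (1.09) and Slc2a1 (0.93) rose less, from high ESC signals. The muscle and platelet phosphofructokinase genes Pfkm and Pfkp and the hexokinase gene Hk1 were not called. Hk2, another hexokinase gene, rose by 0.76, but was not called without replicate 1 (adjusted p 0.051). Of 23 respiratory chain genes 3 were higher and 2 lower, and no difference reached 1 on the log2 scale. With any 1 of the 4 arrays left out at most 1 was higher and 1 lower, and the 4 arrays fitted alone gave 8 and 5. The median lay near 0 (0.057), and it turned negative after quantile normalization and median centring. Among genes of complex I, the entry point of the chain, Ndufa2 was higher (0.53), a call lost without replicate 1 (adjusted p up to 0.0785), and Ndufs1 was lower (-0.58).

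Cholesterol synthesis genes rose in 13 of 18 tested (median 0.88), and they also differed within each population. Without ESCm, and likewise without replicate 1, 5 of them were called. Sc5d, a late step of the pathway, read 303 in ESCe, 236 in ESCm, and 822 and 681 in mesoderm replicates 1 and 2 (1.40 ± 0.20). Fdps, which makes farnesyl diphosphate, read 2151 in ESCe, 1808 in ESCm, and 5110.1 and 3987 in mesoderm replicates 1 and 2 (1.18 ± 0.15). Cyp51, the lanosterol demethylase, read 1201 in ESCe, 718 in ESCm, and 2403 and 1654 in mesoderm replicates 1 and 2 (1.08 ± 0.26), a call lost without ESCm or without replicate 1 (adjusted p up to 0.0846). In all 18 genes ESCe was above ESCm and replicate 1 was above replicate 2. The medium of ESCe held no FCS and that of ESCm 1%. Their bases differed too, GMEM with sodium pyruvate for ESCe and Knockout-DMEM with L-glutamine for ESCm. By the study's methods the mesoderm medium held more FCS than either. The part of serum or of the other medium components in these differences was not tested.

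Cell cycle genes were called in both directions, and no ribosomal protein gene was called in the main fit. Of 22 cell cycle genes 3 were higher, 3 lower and 16 not called, beside 27% higher and 12.1% lower among all genes tested. The count of falls lay near that share. With the 4 arrays fitted alone 8 were higher and 4 lower. The median of 0.044 turned negative after quantile normalization and median centring. Cyclin E1 (Ccne1) fell from 2213 and 2286 to 664 and 610.4 (-1.78 ± 0.13) and Myc from 621 and 592 to 274 and 308. The pocket protein gene Rbl1 (1.07) and Cdk6 (0.86) rose. Mki67, Top2a and Cdk1, which mark dividing cells, were not called, and Top2a read 3506 and 3822 in ESC and 3729.8 and 3673 in mesodermal cells. None of 15 ribosomal protein genes was called, against 1 higher after quantile normalization, 2 lower after median centring, 2 higher without the CHX arrays, and 2 higher and 2 lower with the 4 arrays fitted alone. Their summed intensity was 168032 to 169070 in ESC and 168419 to 169820 in mesodermal cells. Among 19 immediate early genes 10 were higher and 2 lower: Ier3 rose from 148 and 127 to 1393 and 952 (2.86 ± 0.20), Fos by 0.94 and Jun by 0.81, and Egr1 fell from 483 and 619.9 to 195 and 184 (-1.42 ± 0.16). The ESC mean was under 25 in 3 of the 19 and the mesoderm mean in 3. Such genes could pass the filter only through other groups, and this count is given as a description.

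The matrix, actin and stroma lists were mixed. The matrix counts lay near the shares of all genes tested, 27% higher and 12.1% lower. Of 22 matrix and integrin genes 7 rose and 3 fell (median 0.20), and 3 or 4 rose with any 1 of the 4 arrays left out. After quantile normalization 4 rose and 6 fell. The laminin chains parted, with Lamb1 at 1253 and 1171 in ESC and 3275 and 3256 in mesodermal cells (1.41 ± 0.18) and Lama1 at 243 and 233 in ESC and 51.4 and 82.2 in mesodermal cells (-1.54 ± 0.26). The collagen chaperone gene Serpinh1 rose (0.98), a call that was lost without ESCe, without ESCm or without replicate 2 (adjusted p up to 0.136), and the protease inhibitor gene Timp1 fell by 0.99. In the smooth muscle and actin list 3 of 11 were higher and 3 lower, against 1 and 4 after quantile normalization or median centring and 6 and 4 with the 4 arrays fitted alone. Without ESCe, ESCm or replicate 1 the rises numbered 1. Smooth muscle actin (Acta2) fell from 5429 and 5518 to 2579 and 2610.4 (-1.07 ± 0.15) and the light chain gene Myl9 by 1.47, while tropomyosin 1 (Tpm1) rose by 1.11. In the fibroblast and stroma list 4 of 10 were higher and 3 lower, with a median near 0 whose sign depended on the setting. Col5a1 (203 and 201 in ESC and 789 and 728 in mesodermal cells), Pdgfrb (1.20), Fbln1 (0.79) and Dcn (0.59) rose. Col1a2 (-1.10), Col3a1 (-0.94) and Thy1 (-0.78) fell. The call of Fbln1 was lost without ESCm or either replicate and that of Dcn without either ESC array (adjusted p up to 0.171 and 0.168). The calls of Col1a2 and Col3a1 were lost without ESCe or replicate 1, and that of Col1a2 also without ESCm (adjusted p up to 0.12 and 0.113).

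The control line mostly changed in the same directions. It had 1 array of ESCm and 1 of mesodermal cells, which the fit takes to vary like the replicated groups. Of the 3418 genes called higher in the NERT line, 92.5% were also higher in the control line, and of the 1535 called lower 94.3% were lower there. Among genes not called the 2 lines had the same sign in 65.3%. The median difference of the higher genes was 0.87 in the NERT and 0.48 in the control line, and that of the lower genes -0.74 and -0.52. These genes were chosen by their calls in the NERT line, which by itself raises the size of its medians. Across 25532 probe sets the differences of the lines, which share no array, had r = 0.801 and a slope of 0.604. The root mean square difference between control ESCm and control mesoderm was 0.526, and between the mesodermal cells of the lines it was 0.393 to 0.412.

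The difference between the lines was called in few genes. In 67 of 12668 genes (0.529%) the difference in the NERT line lay above that in the control line, and in 12 (0.0947%) below. Of the 67, 63 were called higher from ESC to mesodermal cells in the NERT line, and of the 12, 11 were called lower. Aplnr, at 2.59 and 68.1 in control ESCm and control mesoderm, changed by 1.75 there, and the lines differed by 3.38 ± 0.28 (adjusted p = 0.000461 in limma). Dkk1 read 157 and 176 in the control line, a change of 0.15 (3.09 ± 0.47 between lines, adjusted p = 0.0132). The interferon-induced genes Irgm2 (2.92 ± 0.33) and Rtp4 (2.90 ± 0.42) rose more in the NERT line, where they went from 5.84 and 11.4 to 337 and 330 and from 10.2 and 14.8 to 511 and 601. Pdgfra, read by the brighter of 2 tested probe sets, differed in sign between the lines, with 156 and 29.5 in control ESCm and control mesoderm (2.88 ± 0.51). Of the falls, Dnmt3l read 3176 and 2129 in the control line (-2.23 ± 0.32, adjusted p = 0.00996), Rpl39l 4285 and 1863 (-2.26 ± 0.45) and Foxd3 208 and 114 (-1.96 ± 0.38). Atp1a4, a sodium pump subunit of sperm, read 104 and 78.3 in ESC and 5.54 and 7.21 in mesodermal cells in the NERT line and 4.91 and 2.88 in the control line, so its line difference lay in the ESC level (-1.78 ± 0.29). Gm17762, a predicted gene, was not called in the NERT line (30.4 and 18.4 in ESC and 15.8 and 10.1 in mesodermal cells) and read 22.5 and 148 in the control line (-2.24 ± 0.28). Gata6, an endoderm factor, read 89.1 and 80.0 in ESC and 72.4 and 60.1 in mesodermal cells in the NERT line and 249 and 48.5 in control ESCm and control mesoderm (1.63 ± 0.29), so that control ESCm stood above the NERT arrays. The median of the endoderm list was 0.19 for the NERT and -0.82 for the control line, and its part in the line difference was not tested. Line, clone and culture cannot be told apart here. Medium was not balanced either, as only the NERT line had an ESCe array. Of the 27 line differences called among named and listed genes, those of Aplnr, Oasl2, Irgm2, Rspo3, Lmo2 and Lhx1 stayed called under all alternatives tried.

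**Figure D5:**
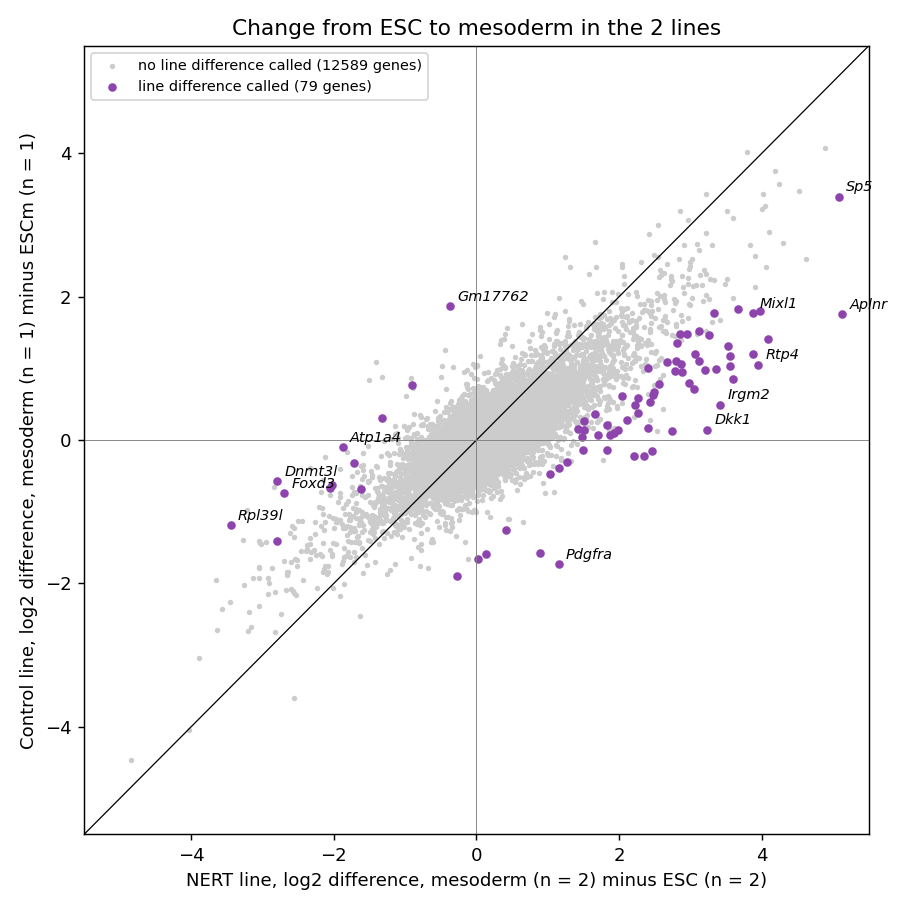
Each point is a gene, with the log2 difference of mesoderm minus ESC on the x axis for the NERT line (2 arrays against 2) and on the y axis for the control line (1 array against 1); the diagonal marks equal change. Purple points are the 79 genes with a called difference between the lines, most of which, such as Aplnr, Dkk1 and Irgm2, rose more in the NERT line.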

How the data were processed

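RNA of mouse ESC and ESC-derived mesodermal cells was read on 16 Affymetrix Mouse Genome 430 2.0 arrays, 1 per sample. The values deposited by the authors were linear model-based signal intensities from dChip, after invariant set normalization in which the array of control mesoderm with OHT was the baseline, with replicates not pooled. No value was rescaled, and arrays give no read depth, so precision is limited by their number. Which probe model was used is not given in the sources used here.

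Groups were taken from the sample labels. Of 45037 probe sets, 34945 named 1 gene symbol, 932 several and 9160 none in the platform annotation, and the symbols of 34741 of those naming 1 were found in the RefSeq gene table. For each of 18193 genes the brightest probe set, by its mean over the 16 arrays, was read among those that name no other gene. Of 5708 genes with several tested probe sets, 76 had probe sets called in both directions. Some listed genes, T among them, are not analysed here.

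Differences were fitted in R 4.3.3 with limma 3.58.1 (lmFit, then eBayes with a trend) after adding 25 and taking log2. Probe sets averaging under 50 in every group were left out, and p-values were adjusted over the rest by Benjamini and Hochberg. Of the 12668 genes tested, 439 had an ESC mean under 25 and could pass this filter only through other groups, among them 251 of the 3418 called higher. The same held for 295 genes with a mesoderm mean under 25, among them 120 of the 1535 called lower. The counts of every list that holds such genes are given as a description. ESCe and ESCm were pooled, so the difference between media counts as spread. A ratio against a mean under 25 was taken against 25 and is given as a lower bound. The line difference was the NERT difference minus the control difference in the same fit. Its ESC side was ESCe and ESCm in the NERT line and ESCm alone in the control line, so medium was not balanced. On simulated data for the comparison of NERT mesodermal cells with ESC, the fit recovered 94% of 2-fold and 100% of 3-fold changes among 200 changed of 25330 probe sets. The 200 were drawn from probe sets with ESC signals well above 25, no other probe set changed, and noise was normal and independent. The recovery therefore does not cover genes that start near 25 or data in which a large part of the genes change. Alternatives were other sample sets, groupings, added constants, filters, scalings and fold limits, and leaving out each array. Other tables and figures were made with Python 3.11.15, numpy 2.4.6, pandas 2.3.3 and matplotlib 3.10.9.

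The genes named were the 15 largest rises and the 15 largest falls among calls with both mesoderm arrays beyond both ESC arrays, the 5 largest line differences in each direction, the 4 markers, and in each of 35 lists up to 4 called members with the largest changes and up to 2 against the list median. Further list members were named after their values were seen. The members, lists and rules were chosen with earlier results of these data known.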

Additional observations from a re-analysis of the deposited data

Results flagged for a closer look

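The change from ESC to mesodermal cells differed between the NERT and the control line, by the interaction contrast in limma, in 27 of the named or listed genes. This test takes the single control arrays to vary like the replicated groups. It sets ESCe and ESCm of the NERT line against ESCm alone of the control line. Over all probe sets the change in the NERT line lay above that in the control line in 103 and below it in 22.

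Among streak and mesoderm genes the difference between lines (NERT minus control, log2) was 3.38 for Aplnr, 1.69 for Sp5, 2.11 for Mixl1, 2.63 for Lhx1, 1.86 for Cyp26a1, 2.38 for Rspo3, 2.62 for Lmo2, 2.88 for Pdgfra and 2.24 for Hoxb1. Among Wnt and Notch pathway genes it was 3.09 for Dkk1, 1.89 for Wnt5b, 1.45 for Frzb and 1.73 for Nrarp. Among interferon-induced genes it was 2.68 for Oasl2, 2.92 for Irgm2, 2.90 for Rtp4, 1.82 for Ifit1 and 2.33 for Usp18. It was 2.19 for Alox15, 1.80 for Grb10 and 1.63 for Gata6.

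The change in the NERT line lay below that in the control line for Rpl39l (-2.26), Gm17762 (-2.24), Dnmt3l (-2.23), Foxd3 (-1.96), Atp1a4 (-1.78) and Dppa2 (-1.38).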

How the results depend on the processing

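The count of probe sets called lower rose from 3265 to 4975 after quantile normalization and to 5761 after median centring, which shift the centre of all differences. Leaving out 1 of the 4 arrays left 3880 to 4605 probe sets higher and 1968 to 2166 lower; the lowest count of rises, 3880, came without ESCm. The other alternatives kept both counts within 1.5 times. The fold criteria gave 4538 higher and 2097 lower at 1.5-fold, 1165 and 457 at 3-fold, and 4466 and 3246 with no minimum difference. With an array left out they gave 2399 to 2888 and 1042 to 1101.

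The line difference, with ESCe and ESCm on the NERT side and ESCm alone on the control side, depended more on the setting. Against 103 probe sets above and 22 below, it gave 23 and 2 with 12 conditions as groups, 195 and 64 without the CHX arrays, 67 and 10 with no filter, and 609 and 199 with control arrays pooled over OHT. It gave 63 above with 5 added to each value, and 36 and 39 below after quantile normalization and median centring. With 1 of the 4 arrays left out it gave 27 to 65 above and 2 to 21 below, and the lowest of both, 27 and 2, came without ESCe.

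Of 7320 alternative values for the differences of 530 named or listed genes, 336 lost the call, 176 gained one and none changed direction where a call was involved. Of 378 values for 27 line differences, 100 lost the call. List medians also depended on the probe set read. With all probe sets of a gene averaged, the Notch median was 0.39 against 0.083. The retinoic acid median was then 0.20 against -0.11, and that of smooth muscle and actin -0.056 against 0.24. The causes of these dependences were not tested. No paired analysis was possible because the ESC arrays carry no replicate numbers that match the mesoderm replicates. Low signals have no detection call here, and values near 25 bound only what the added constant allows.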
